A study of Mus musculus with 6 samples.

Results

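The natriuretic peptide genes and 4 other cardiac stress genes, 6 genes in all, were followed in cardiomyocytes cultured with fibroblasts. The members were taken by name: Nppa, Nppb, Ankrd1, Xirp2, Csrp3 and Rcan1. All 6 were found among the 27179 Entrez rows of the bulk count table and as Ensembl columns of both single-cell tables, and all 6 passed the filter on low counts. Immature cardiomyocytes (imCMs), the contractile cells of the heart, came from left ventricles of newborn C57BL/6 mice. They were grown for a few days on cardiac fibroblasts of the same strain, the matrix-producing cells of the heart. These were either neonatal fibroblasts (NF, giving the imCM-NF group) or adult fibroblasts (AF, giving the imCM-AF group), with 2 bulk libraries in each group. Both groups were therefore co-cultures, and no bulk library of imCMs grown alone was used. The fibroblasts had been passaged before use, and the co-cultures with AFs were plated with more fibroblasts per imCM, so the age of the fibroblasts and their number cannot be told apart. Single cells were read on 2 chips, one of cardiomyocytes and one of fibroblasts. The wells of the cardiomyocyte chip carry the names AFNCM, NFNCM and NCM0, and those of the fibroblast chip AF, NF, AF0 and NF0. The letters are those of the bulk columns, and the labels do not say what 0 stands for.

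Nppa and Nppb encode the precursors of the atrial and B-type natriuretic peptides, hormones that the heart secretes under load and that act on kidney and vessel through guanylyl cyclase receptors. Atrial muscle keeps making Nppa throughout life, whereas ventricular muscle expresses it before birth, falls silent for it afterwards, and turns it on again in hypertrophy and failure. Ankrd1 encodes CARP, an ankyrin repeat protein that binds titin in the sarcomere and also enters the nucleus. Csrp3 encodes the muscle LIM protein of the Z-disc. Xirp2 encodes an actin-binding protein of the intercalated disc, and Rcan1 an inhibitor of the phosphatase calcineurin, whose own transcription follows calcineurin and NFAT.

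Nppb and Nppa lie next to each other on the plus strand of chromosome 4 of GRCm38, the assembly also called mm10. RefSeq places Nppb at chr4:147985786-147987205 and Nppa at chr4:148000722-148002074. Xirp2 lies at chr2:67446000-67526620, Csrp3 at chr7:48830398-48848051, Rcan1 at chr16:92391951-92466169 and Ankrd1 at chr19:36111965-36119844. In GENCODE an antisense gene, Gm13054, covers 532 of the 865 exon bases of Nppa, or 61.5%. The bulk kit does not keep strand, so bulk reads of Nppa and of this antisense gene cannot be told apart. On the cardiomyocyte chip, Gm13054 had 23 UMIs (unique molecular identifiers, each standing for 1 captured RNA molecule) in 5 wells. Nppa had 11828 UMIs in 755 of the 1409 wells that were not controls. How single-cell reads that fit both genes were assigned is not stated, so these counts do not measure the effect of the overlap. Exons of Xirp2 shared 168 bases, 1.4%, with the antisense gene Gm13601, and no other member shared exon bases with another gene.

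Promoter stretches of 4 members are shown, those of Nppa and Ankrd1 because their bulk levels differed, that of Nppb because it is the neighbour of Nppa, and that of Rcan1 for the NFAT motif that its known regulation rests on. The letters CATTCC stand for the M-CAT element, which TEAD factors bind. For factors of the GATA family the letters were AGATAA, and also TGATAA. For NKX factors they were AAGTG and for NFAT they were GGAAA, and the CArG box of SRF was searched too. Both strands were searched in RefSeq windows from 250 bases before to 50 bases after each start (build GRCm38.p6). All 6 members had a window, and capitals mark the matches, none of which overlapped another. The stretch of Nppa ends at the base before its start, chr4:148000472-148000721 on the plus strand.
Nppa: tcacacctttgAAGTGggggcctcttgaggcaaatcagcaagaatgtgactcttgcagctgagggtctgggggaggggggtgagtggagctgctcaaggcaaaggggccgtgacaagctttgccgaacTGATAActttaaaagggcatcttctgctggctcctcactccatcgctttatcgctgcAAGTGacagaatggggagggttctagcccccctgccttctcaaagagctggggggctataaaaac
The Nppa stretch held 1 GATA match, 122 bases before the start, and 2 NKX matches, 239 and 65 bases before it. The Nppb stretch below, chr4:147985795-147985824, begins 105 bases before the start site of its window. That start site lies inside the gene interval given above, since RefSeq also places a start further upstream.
Nppb: GGAATGcagcTGATAAatcagAGATAAccc
It held the M-CAT letters on the minus strand, followed by 2 GATA matches. In the window of Ankrd1, on the minus strand of chromosome 19, M-CAT letters were found 210 and 123 bases before the start, and GATA letters 47 bases before it. The 3 stretches are chr19:36120037-36120066, chr19:36119950-36119979 and chr19:36119874-36119903.
Ankrd1 distal: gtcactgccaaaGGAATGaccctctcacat
Ankrd1 middle: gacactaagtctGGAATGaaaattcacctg
Ankrd1 proximal: caggctggaagaTTATCTcacccagcccta
Rcan1 has 2 windows, and the inner one, which lies within the gene, held 3 NFAT matches while the outer one held none. One of them, on the minus strand at chr16:92400254-92400283, reads as follows.
Rcan1: taattagcatagGGAAAatgactaaggtgt
Of all 32851 RefSeq windows, 14.7% held M-CAT letters, 18.6% a GATA match, 46.4% an NKX match, 61.3% an NFAT match and 1.63% a CArG box. The window of Xirp2 held 1 NKX match, the 2 windows of Csrp3 held 1 NKX and 1 NFAT match, and no window of a member held a CArG box. A match is a string of letters and no measurement of binding.

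The 4 bulk libraries held from 9278909 to 12088577 counts each. Levels are given as CPM, the usual scaling of counts to one common library size, with TMM factors applied. The test was edgeR's quasi-likelihood test, and a call needed an adjusted p below 0.05 together with a log2 fold change beyond 0.58 in either direction. Of 14041 genes tested, 11.1% were called, 6.15% higher and 4.99% lower in imCM-AF. The levels of 66.0% of all genes did not overlap between the groups, which 2 libraries against 2 reach easily. The labels do not say that the 2 libraries of a group came from separate cultures, so the p-values measure the spread between libraries only. The 8 cardiomyocyte markers summed to 40170 and 29410 CPM in imCM-NF and to 37210 and 40630 CPM in imCM-AF, and none was called. Within imCM-NF, replicate 1 thus held more of these transcripts than replicate 2, and all 6 members were also higher in replicate 1. The 8 fibroblast markers summed to 15250 and 16710 CPM in imCM-NF against 10660 and 8430 in imCM-AF, with 4 called lower and none higher. The 6 endothelial markers summed to 865 and 899 CPM against 575 and 553, with 4 called lower, the 6 macrophage markers lay between 59.5 and 82.4 CPM with 1 called lower, and the 4 smooth muscle markers between 1559 and 2222 CPM with 1 called lower. Of the fibroblast markers, Col1a1 and Col1a2 lost their call without imCM-AF replicate 2 and Col1a1 without imCM-NF replicate 2, and Col3a1 gained one without imCM-AF replicate 1. C1qa, the called macrophage marker, lost its call without imCM-AF replicate 1, and Cnn1, the called smooth muscle marker, without imCM-NF replicate 1 (-0.26). These markers moved with the group, and their part in the members' levels was not tested. Fewer cells of a type and less RNA per cell cannot be told apart in such libraries.

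Nppa was lower and Ankrd1 higher in imCMs cultured with AFs, and the other 4 members did not pass the test. In imCM-NF, Nppa had 7250 and 4778 CPM. In imCM-AF it had 3170 and 3430 CPM. Both imCM-AF libraries lay below both imCM-NF libraries, and the gap within imCM-NF was wide. Its log2 fold change was -0.87 ± 0.22 (SE, 2 libraries per group, edgeR adjusted p = 0.00751). The call was lost when imCM-AF replicate 1 was left out, with -0.80 and an adjusted p of 0.0583 in edgeR. It was also lost when imCM-NF replicate 1 was left out, with -0.54, under the fold threshold.

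Nppb, the neighbour of Nppa, did not pass the test. In imCM-NF it stood at 241 and 169 CPM, and its values of 211 and 248 CPM in imCM-AF overlapped with these. Its log2 fold change was 0.17 ± 0.14 (SE, 2 libraries per group, edgeR adjusted p = 0.394). The sign turned to -0.06 without imCM-NF replicate 2.

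Ankrd1 had 3311 and 2550 CPM in the imCM-NF libraries. In imCM-AF it reached 4823 and 5336 CPM. Both imCM-AF libraries were higher than both imCM-NF libraries. Its log2 fold change was 0.79 ± 0.20 (SE, 2 libraries per group, edgeR adjusted p = 0.00672). Leaving out imCM-NF replicate 2 ended the call, at 0.63 with an adjusted p of 0.0548 in edgeR. Its direction was thus opposite to that of Nppa.

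The structural and signalling members overlapped between the groups. Csrp3 had 336 and 228 CPM in imCM-NF against 248 and 275 CPM in imCM-AF, a difference of -0.11 ± 0.14 on the log2 scale (SE, edgeR adjusted p = 0.605). For Rcan1 these values were 172 and 127 CPM against 147 and 164 CPM, a difference of 0.06 ± 0.12 (edgeR adjusted p = 0.757). Xirp2 had 78.7 and 44.8 CPM against 58.0 and 64.5 CPM, a difference of 0.00 ± 0.17 (edgeR adjusted p = 0.986). In each of these 3 genes imCM-NF replicate 1 was the highest library and imCM-NF replicate 2 the lowest. Leaving out 1 library turned the sign of all 3, to 0.19 for Csrp3 without imCM-NF replicate 1, to -0.14 for Rcan1 and to -0.35 for Xirp2 without imCM-NF replicate 2.

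**Figure D1:**
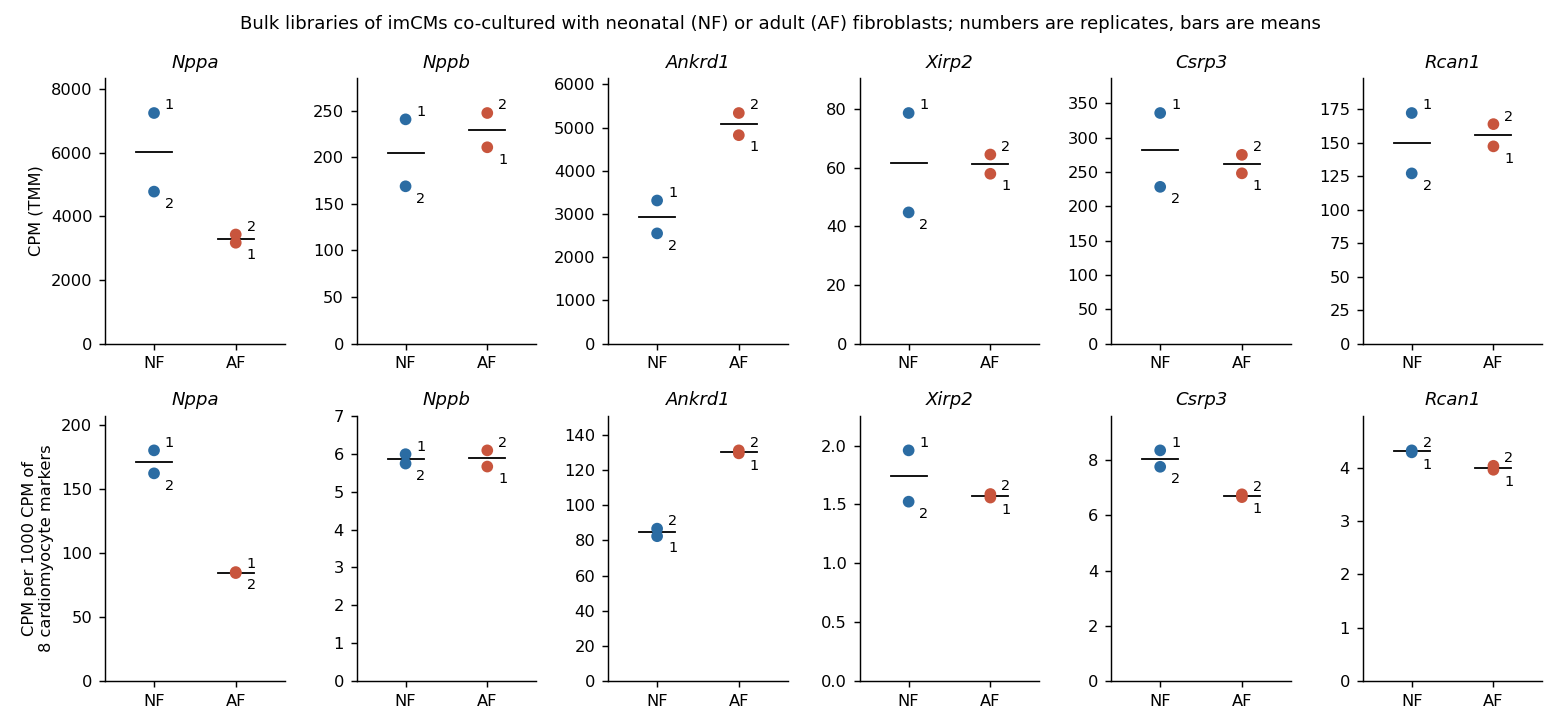
Levels of the 6 genes in the 4 bulk libraries, as TMM-scaled CPM (top) and per 1000 CPM of the 8 summed cardiomyocyte markers (bottom), with NF and AF for imCM-NF and imCM-AF, numbers for replicates and bars for means. Only the panels of Nppa and Ankrd1 have groups apart in the top row, and in the bottom row the 2 Nppa values of imCM-NF, 181 and 163, stand over those of imCM-AF, 85.2 and 84.4.

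Set against the cardiomyocyte markers, a description added after the levels had been seen, the replicates drew together. Nppa was 181 and 163 CPM per 1000 CPM of these markers in imCM-NF and 85.2 and 84.4 in imCM-AF, a ratio of 0.495. Ankrd1 was 82.4 and 86.7 against 130 and 131, a ratio of 1.54. Csrp3 was 8.36 and 7.76 against 6.66 and 6.76, a ratio of 0.833, and no longer overlapped. Rcan1, at 4.29 and 4.32 against 3.96 and 4.03, did not overlap either, with a ratio of 0.928. Nppb and Xirp2 still overlapped, with 5.99 and 5.75 against 5.67 and 6.09 for Nppb. The marker with the highest level was Myh6, with a mean of 11630 CPM in imCM-NF and 14780 CPM in imCM-AF. It was not called here, while the paper places it among the genes raised by AFs. Small gaps such as that of Rcan1 therefore depend on which markers are summed. These ratios have no test. The share of all genes that do not overlap on this scale was not counted, and on plain CPM it was 66.0%.

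Per kilobase of exon, Nppa was the most abundant member in every bulk library. It ranged from 3665 to 8382 CPM per kb, Ankrd1 from 884 to 1849, Nppb from 216 to 317, Csrp3 from 85.4 to 126, Rcan1 from 41.2 to 55.8 and Xirp2 from 3.74 to 6.57. The ranges of neighbours in this order did not overlap. Nppa thus exceeded Ankrd1 in both groups, though the 2 genes were closer in imCM-AF, where Nppa stood at 3665 and 3965 and Ankrd1 at 1671 and 1849 CPM per kb.

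**Figure D2:**
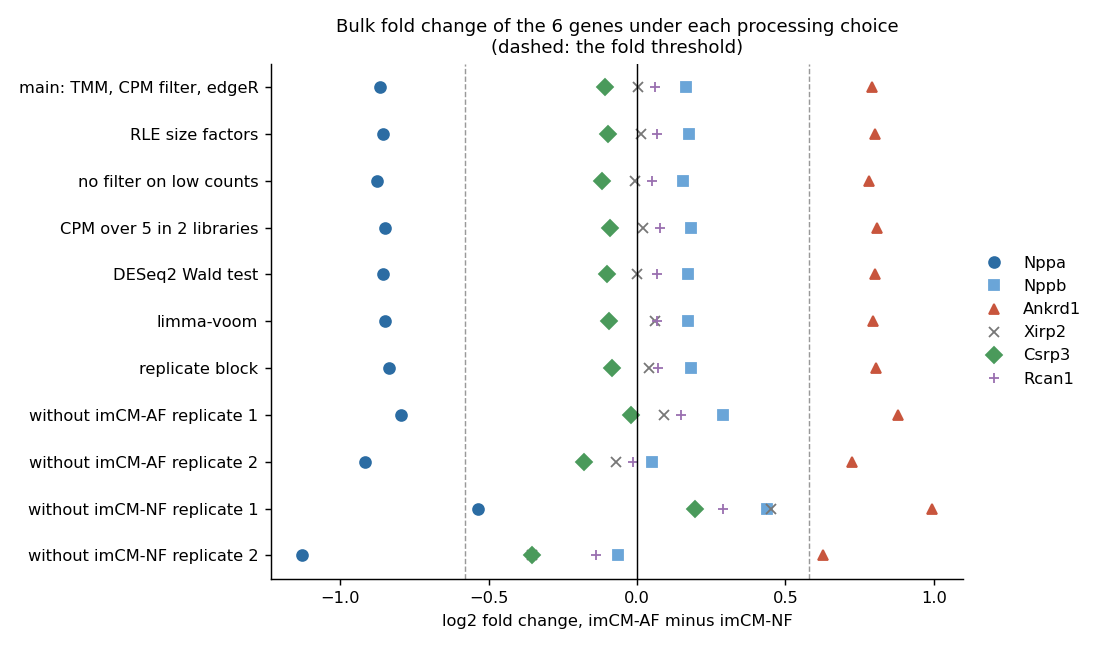
Log2 fold change (imCM-AF minus imCM-NF, horizontal axis) of the 6 genes under the main processing and 10 alternatives (rows), with dashed lines at the fold threshold of 0.58. Nppa stays left of 0 throughout, between -1.13 and -0.54, and Ankrd1 right of it, between 0.63 and 0.99, while the other 4 genes lie near 0 and shift most when 1 imCM-NF library is left out. In the lowest row the mark of Xirp2 lies under that of Csrp3.

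The receptors and processing enzymes of the natriuretic peptides mostly did not pass the test. Of 11 genes of this pathway, 9 were tested, and Nppc, the C-type peptide, and Mme, a peptide-degrading enzyme, were too low. Npr3, the clearance receptor that removes the peptides from the fluid around cells, rose in imCM-AF, with 12.1 and 10.9 CPM there against 7.58 and 7.27 CPM in imCM-NF (log2 fold change 0.64 ± 0.17, edgeR adjusted p = 0.0128). It was no longer called in DESeq2, nor without imCM-AF replicate 1 or without imCM-NF replicate 2, where its value stayed at 0.57 or more. Pde9a, a phosphodiesterase that degrades the cyclic GMP made by the receptors, fell by 2.18 on the log2 scale (edgeR adjusted p = 0.00173), from 2.12 and 2.64 CPM to 0.274 and 0.756 CPM. The guanylyl cyclase receptors had log2 fold changes of -0.02 for Npr1 and -0.03 for Npr2, with adjusted p-values of 0.954 and 0.869 in edgeR. Corin, the protease that activates the Nppa precursor, had 0.41 (edgeR adjusted p = 0.0540). Furin, which cleaves the Nppb precursor, had -0.37 (edgeR adjusted p = 0.0139), under the fold threshold. The median over the 9 genes was -0.03, beside 0.00 over all genes tested, of which 11.1% were called. Without imCM-NF replicate 2 no gene of the list was called, Pde9a then being too low to be tested.

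None of the 14 genes of calcineurin and NFAT, the partners of Rcan1, was called, beside 11.1% of all genes tested. At that share a list this small holds few calls. Rcan2, its paralog, differed by 0.50 on the log2 scale (edgeR adjusted p = 0.00787). For Nfatc1, one of the NFAT factors, the difference was -0.45 (edgeR adjusted p = 0.00415), and both values lay under the fold threshold. Rcan3 had -0.32. Leaving out imCM-NF replicate 1 gave 2 calls, Rcan2 and Myoz2, and leaving out imCM-AF replicate 1 gave 1, Rcan2. The list's median was 0.00, that of all genes.

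Among 16 tested genes of the Z-disc and titin around Ankrd1 and Csrp3, 4 were called higher and 1 lower, with a median of 0.27. Over all genes tested 6.15% were called higher and 4.99% lower, and the median was 0.00. The 5 calls became 8 when imCM-NF replicate 1 was left out. They became 3 when imCM-AF replicate 2 was left out and 2 when imCM-NF replicate 2 was. Those higher in imCM-AF were Ttn, the titin spring (0.62), Ldb3, a Z-disc scaffold (0.59), Mypn, which binds Ankrd1 in the sarcomere (0.64), and Nexn, an actin-binding Z-disc protein (0.70). For Nexn the imCM-NF libraries had 389 and 285 CPM, and the imCM-AF libraries 515 and 581 CPM. All 4 lost their call without imCM-NF replicate 2, at 0.38 for Ttn, 0.40 for Ldb3, 0.43 for Mypn and 0.50 for Nexn. Ttn and Ldb3 also lost it without imCM-AF replicate 2, Ttn in DESeq2 and with the replicate block, and Ldb3 without the filter on low counts. The 1 lower gene was a paralog of Csrp3 made widely outside cardiomyocytes, Csrp1 (-0.79, edgeR adjusted p = 9.18e-05), at 547 and 548 CPM against 336 and 296 CPM. It moved with the fibroblast markers given above, and their part in its level was not tested. Csrp2, the other paralog, had -0.55 (edgeR adjusted p = 0.000445), just under the fold threshold. Ankrd23, a relative of Ankrd1, had 0.35, and Xirp1, the paralog of Xirp2, 0.15, and neither passed. The titin cap gene Tcap had 0.48 (edgeR adjusted p = 0.00725) and did not reach the fold threshold, and Ankrd2 was too low to be tested.

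Among 12 other stress genes of cardiomyocytes, 3 were called higher and 2 lower, with a median of 0.28, beside the same 6.15%, 4.99% and 0.00 over all genes. The 5 calls became 3 without imCM-AF replicate 2 and 3 without imCM-NF replicate 1. Gdf15, a secreted stress cytokine, rose by 0.80 on the log2 scale from 36.6 and 45.4 CPM to 71.6 and 71.7 CPM. Hmox1, heme oxygenase, rose by 0.66 and Spp1, osteopontin, by 0.62. Sprr1a, a gene of the hypertrophic response, fell by 0.96 from 211 and 120 CPM to 63.8 and 105 CPM. Acta1, skeletal alpha-actin and like Nppa a gene of the fetal programme, fell by 0.63 from 39.8 and 31.4 CPM to 25.1 and 20.6 CPM. The adjusted p-values of these 5 genes in edgeR were 4.31e-05, 0.000124, 0.000688, 0.00266 and 0.00229. Without imCM-NF replicate 1 Sprr1a had -0.50 and Acta1 -0.46, and neither was called. Sprr1a was also not called in DESeq2, and Acta1 and Spp1 were not called without imCM-AF replicate 2. Myh7, the slow myosin of the same programme, had 0.32 (edgeR adjusted p = 0.101).

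Regulators named for the promoter motifs were not called, beside 11.1% of all genes tested, a share at which lists this small hold few calls. Of 11 genes of YAP and TEAD none was called (median -0.02), and Tead1 itself had 0.36 (edgeR adjusted p = 0.0142), under the fold threshold. Of 10 cardiac transcription factors none was called (median 0.24), with Gata4 at 0.23 and Nkx2-5 at 0.29. Mef2c at 0.46, Tbx5 at 0.46 and Mef2d at 0.44 passed the adjusted p but not the fold threshold. Mef2c and Tbx5 were called without imCM-AF replicate 1, and Mef2c without imCM-NF replicate 1.

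The single-cell chips gave the members' level well by well. Wells were kept if 500 or more genes were seen in them, over 50% of their read pairs aligned, and their total of UMIs lay no further than 2 SD from the average, which left 1296 of 1419 wells of the cardiomyocyte chip and 951 of 1063 of the fibroblast chip. The chips shared 269 well barcodes. A kept well was put in the cardiomyocyte range where it held more UMIs of the 8 cardiomyocyte markers than of the 8 fibroblast markers, which is a range and not a cell type. It held 421 of 515 AFNCM wells, 481 of 523 NFNCM wells and 253 of 258 NCM0 wells, and 45, 47 and 10 kept wells lay within a factor of 2 of that line. Median depth in the range was 18210 UMIs for AFNCM, 17840 for NFNCM and 15920 for NCM0. Within a name the wells carry 2 or 3 different end numbers, and the wells of 1 number are called a source well here. Whether the numbers stand for separate cultures is not known. All lie on 1 chip, so they were not treated as replicates and no test was made. The share of all genes whose source wells do not overlap between names was not counted, so gaps between source wells are a description. Intervals are exact at 95%, binomial for shares and Poisson for levels, and cover counting error only.

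Nppa was seen in more AFNCM than NFNCM wells, the opposite order to the bulk libraries. A UMI was present in 284 of 421 AFNCM wells of the cardiomyocyte range, 67.5% (62.7 to 71.9%). It was present in 212 of 481 NFNCM wells, 44.1% (39.6 to 48.6%), and in 146 of 253 NCM0 wells, 57.7% (51.4 to 63.9%). Source wells ran from 55.0 to 74.8% for AFNCM and from 37.1 to 49.1% for NFNCM and did not overlap, while NCM0, at 46.7 and 65.8%, overlapped both. After every well was thinned to 5000 UMIs the shares were 47.9% of 349 AFNCM wells, 23.2% of 375 NFNCM wells and 27.1% of 210 NCM0 wells. The fibroblast-range wells of the same chip were taken as the background, but they were no empty level. They held a UMI in 51.1% of 94 AFNCM wells (40.5 to 61.5%) and 27.5% of 40 NFNCM wells (14.6 to 43.9%). After thinning these were 15.7% and 5.88%. AFNCM thus stood above NFNCM in the background too. The 44.1% of NFNCM lay below the AFNCM background of 51.1%, with overlapping intervals. Per 1000 UMIs of Tnnt2, a cardiomyocyte marker, the AFNCM background held 52.4 UMIs of Nppa, against 38.4 in the cardiomyocyte range. In NFNCM these were 10.8 and 19.5.

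In summed UMIs, Nppa reached 565 CPM in AFNCM (552 to 578), 274 in NFNCM (265 to 284) and 210 in NCM0 (199 to 223). Single source wells gave 1018, 267 and 582 CPM for AFNCM and 194, 423 and 205 CPM for NFNCM. The highest value belonged to an AFNCM source well, but the 2 names overlapped. Nppa was much scarcer beside Tnnt2 in these wells than in bulk. In bulk the mean levels of Nppa and Tnnt2 were 3300 and 6624 CPM in imCM-AF and 6014 and 6439 CPM in imCM-NF. In the cardiomyocyte range there were 38.4 UMIs of Nppa per 1000 of Tnnt2 in AFNCM and 19.5 in NFNCM. The reason for this gap was not tested. In the fibroblast-range wells of the fibroblast chip Nppa stood at 1.86 CPM in AF, 1.77 in NF and 0.964 in AF0, and at 13.2 CPM in NF0 (6.41 and 17.1 by source well), where 22% of 250 wells held a UMI at a median depth of 34610 UMIs. Those NF0 wells also held Tnnt2, a cardiomyocyte marker, in 1125 and 1280 CPM by source well, against 58.0 and 63.9 in AF, and its part in the Nppa reads was not tested.

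**Figure D3:**
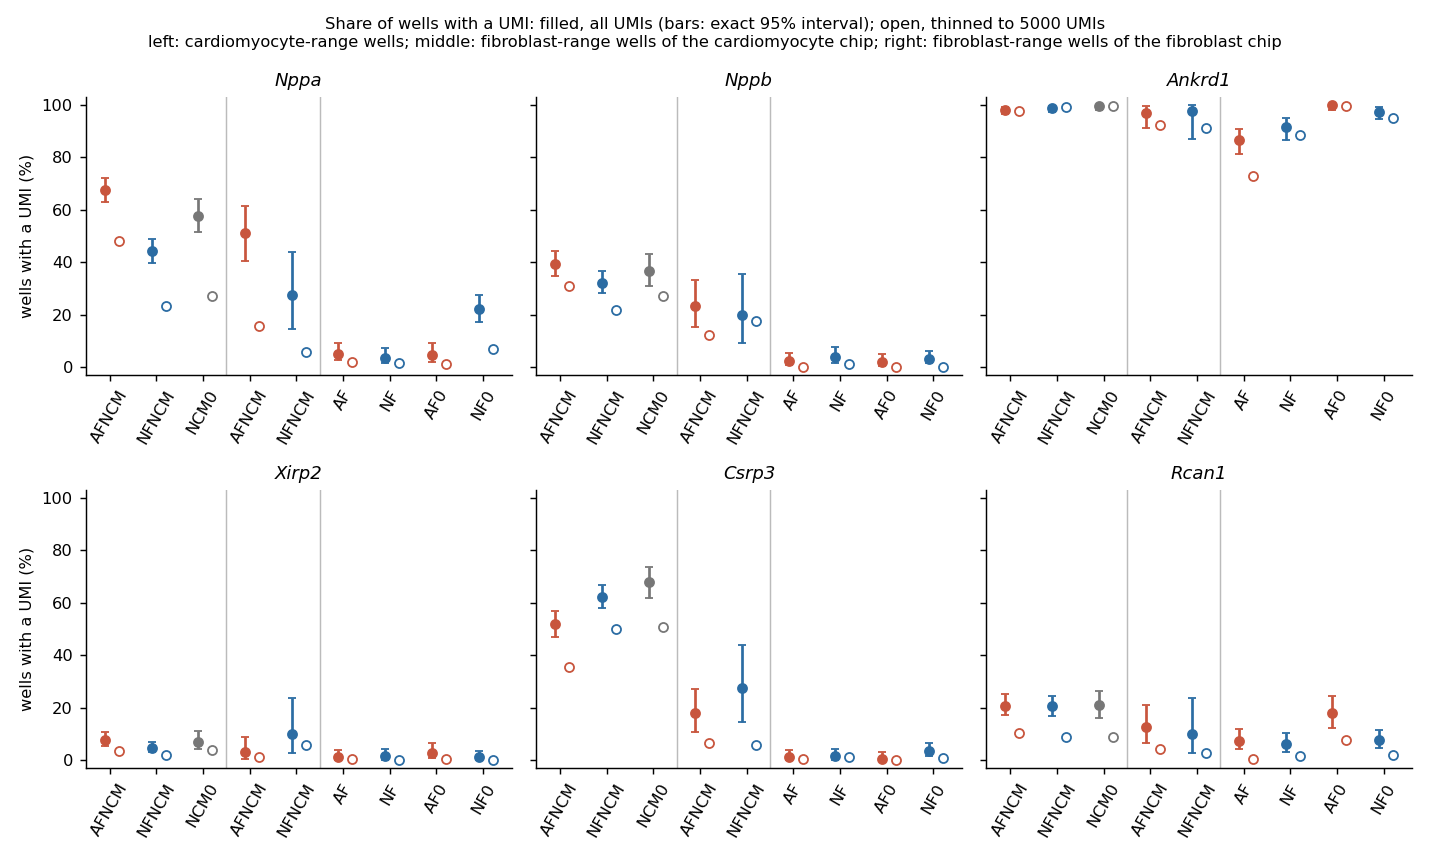
Share of kept wells with at least 1 UMI of each gene (percent, vertical axis) by well name, with exact 95% intervals (filled points) and after thinning each well to 5000 UMIs (open points). Nppa, Nppb and Csrp3 are common in cardiomyocyte-range wells and rare on the fibroblast chip, except for Nppa in NF0, while Ankrd1 is present in 86.4 to 100% of wells everywhere.

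Most Nppa UMIs came from a handful of wells. In AFNCM 8 of 421 wells held 50% of the gene's UMIs, in NFNCM 6 of 481, and in NCM0 4 of 253. The 10 wells richest in Nppa carried the atrial light chain Myl7 at 28790 CPM in AFNCM and 38790 CPM in NFNCM, against 1374 and 1078 CPM in the other wells. In the same wells Sln, the atrial regulator of the calcium pump, reached 13870 and 21160 CPM against 540 and 281 CPM. Myl2, the ventricular light chain, was at 631 and 801 CPM in them and at 6062 and 6731 CPM in the others. The imCMs are described as coming from left ventricles, while these few wells were high in atrial and low in ventricular markers. The atrial ligand Bmp10 had 1 UMI in all cardiomyocyte-range wells together.

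Wells were therefore split, after their values had been seen, at 100 UMIs of 6 atrial markers per 10000. Above this level were 20 of 421 AFNCM wells, 18 of 481 NFNCM wells and 7 of 253 NCM0 wells, and they held 71.7%, 70.6% and 63.1% of the Nppa UMIs. In the wells below it Nppa stood at 173 CPM in AFNCM, 84.6 in NFNCM and 80.0 in NCM0. By source well these were 214, 134 and 190 CPM for AFNCM and 71.0, 115 and 69.1 CPM for NFNCM, which did not overlap. The 115 CPM include the NFNCM well richest in Nppa, which lay just below the level with 137 UMIs per 10000. A UMI was present in 65.8% of the AFNCM wells below the level (61.0 to 70.5%) and in 42.1% of the NFNCM wells (37.6 to 46.8%). The bulk libraries gave the reverse order for Nppa, where the atrial markers summed to 1003 and 868 CPM for imCM-NF against 1054 and 1015 CPM for imCM-AF. All 6 atrial markers had positive log2 fold changes there, and only Bmp10 was called (0.88, edgeR adjusted p = 0.021). Bmp10 had 2.34 and 2.40 CPM in imCM-NF against 4.38 and 4.37 in imCM-AF. Its call was lost in DESeq2 and whenever 1 library was left out. The difference between the assays was not tested.

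**Figure D4:**
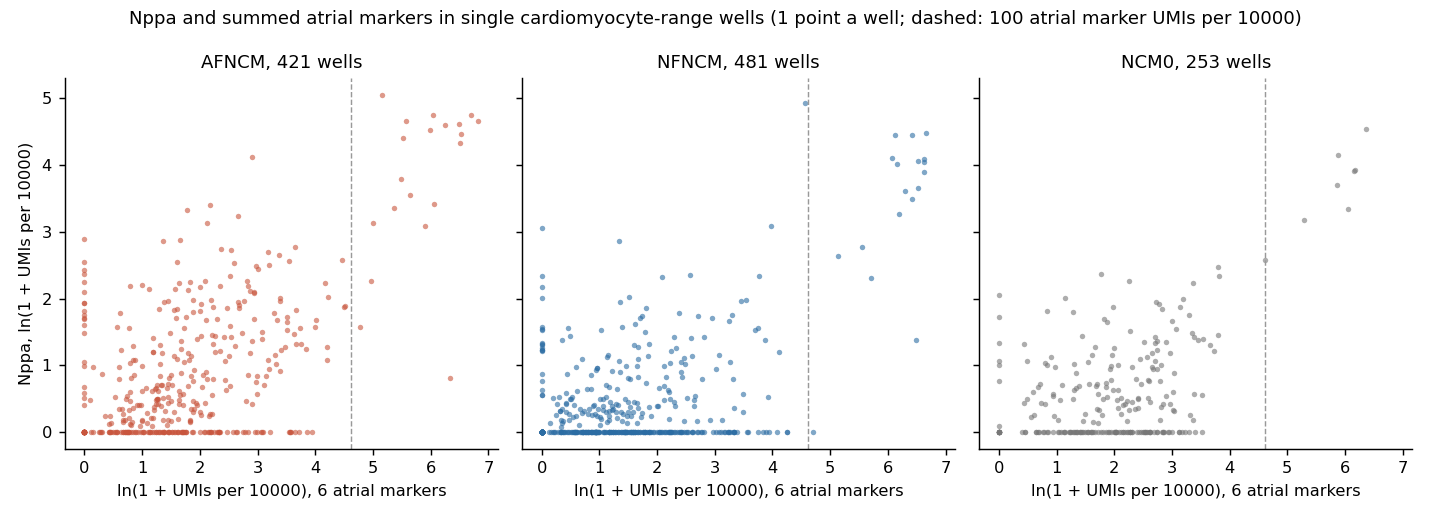
Nppa against the sum of 6 atrial markers in each cardiomyocyte-range well, both as ln(1 + UMIs per 10000), for AFNCM, NFNCM and NCM0, with a dashed line at 100 atrial marker UMIs per 10000. The 20, 18 and 7 wells to the right of the line hold most of the high Nppa values, although the highest NFNCM value, 137 UMIs per 10000, lies just left of it.

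Nppb was rarer than Nppa and shared only part of this pattern. It was seen in 39.4% of AFNCM wells (34.7 to 44.3%), 32.2% of NFNCM wells (28.1 to 36.6%) and 36.8% of NCM0 wells (30.8 to 43.0%). Its level was 214 CPM in AFNCM, 168 in NFNCM and 245 in NCM0, and source wells overlapped, at 219, 152 and 274 CPM for AFNCM and 195, 119 and 192 CPM for NFNCM. The background in fibroblast-range wells was 23.4% of AFNCM wells (15.3 to 33.3%) and 20% of NFNCM wells (9.05 to 35.7%). Wells above the atrial level held 36.4% of the Nppb UMIs in AFNCM and 25.0% in NFNCM, a smaller part than of Nppa. In NCM0 the 10 wells with most Nppb UMIs held 71.3% of them, and without these wells the level fell to 75.0 CPM. On the fibroblast chip Nppb stayed at 0.603 to 4.26 CPM.

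Ankrd1 was the member found in almost every well. A UMI was present in 98.1% of AFNCM, 98.5% of NFNCM and 99.6% of NCM0 wells. Its level was 5327 CPM in AFNCM (5286 to 5369), 5102 in NFNCM (5061 to 5143) and 4652 in NCM0 (4596 to 4708). Source wells gave 5308, 5492 and 5172 CPM for AFNCM and 5285, 5682 and 4470 CPM for NFNCM, and so overlapped. In the pooled wells AFNCM was slightly higher than NFNCM. Per 1000 UMIs of Tnnt2, Ankrd1 had 362 UMIs in both names. In bulk its ratio of imCM-AF to imCM-NF per cardiomyocyte marker was 1.54. Nppa had only 38.4 UMIs per 1000 of Tnnt2 in AFNCM and 19.5 in NFNCM. Ankrd1 thus stood above Nppa here, while per kilobase in bulk Nppa stood above Ankrd1. UMIs were not scaled by exon length, and the difference between the assays was not tested. The atrial wells held 8.69% of the Ankrd1 UMIs in AFNCM and 6.09% in NFNCM, at 6123 and 6578 CPM against 5262 and 5029 CPM in the wells below the level.

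Ankrd1 was also abundant on the fibroblast chip. In fibroblast-range wells of the fibroblast chip it stood at 879 CPM in AF (868 and 889 by source well), 1072 in NF (1041 and 1101), 1099 in NF0 (1098 and 1099) and 2652 in AF0 (2594 and 2748). AF0 stood above AF in both source wells, and AF, NF and NF0 lay within 868 to 1101 CPM. Per 1000 UMIs of Tnnt2 there were 14390 UMIs of Ankrd1 in AF and 21670 in AF0, against 362 in both AFNCM and NFNCM cardiomyocyte-range wells. The 2 genes were thus not in the ratio that they had in cardiomyocyte-range wells. In NF and NF0 wells, which held more Tnnt2, the ratio was 1306 and 899. The negative control wells of the cardiomyocyte chip held 7 UMIs of Ankrd1 and none of another member, and those of the fibroblast chip held none.

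Csrp3 was seen in more NCM0 and NFNCM wells than AFNCM wells. It was present in 68.0% of NCM0 wells (61.9 to 73.7%), 62.4% of NFNCM wells (57.9 to 66.7%) and 52.0% of AFNCM wells (47.1 to 56.9%). By source well the shares were 60.1 to 65.9% for NFNCM and 48.3 to 54.4% for AFNCM, without overlap. After thinning to 5000 UMIs they were 51.0%, 50.1% and 35.5%. Levels were 425 CPM in NCM0 (409 to 443), 367 in NFNCM (356 to 378) and 247 in AFNCM (238 to 256). Source wells ran from 311 to 449 CPM for NFNCM and from 157 to 333 CPM for AFNCM and overlapped. In fibroblast-range wells of the same chip the share was 18.1% for AFNCM and 27.5% for NFNCM, and on the fibroblast chip the level was 0.121 to 1.98 CPM.

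**Figure D5:**
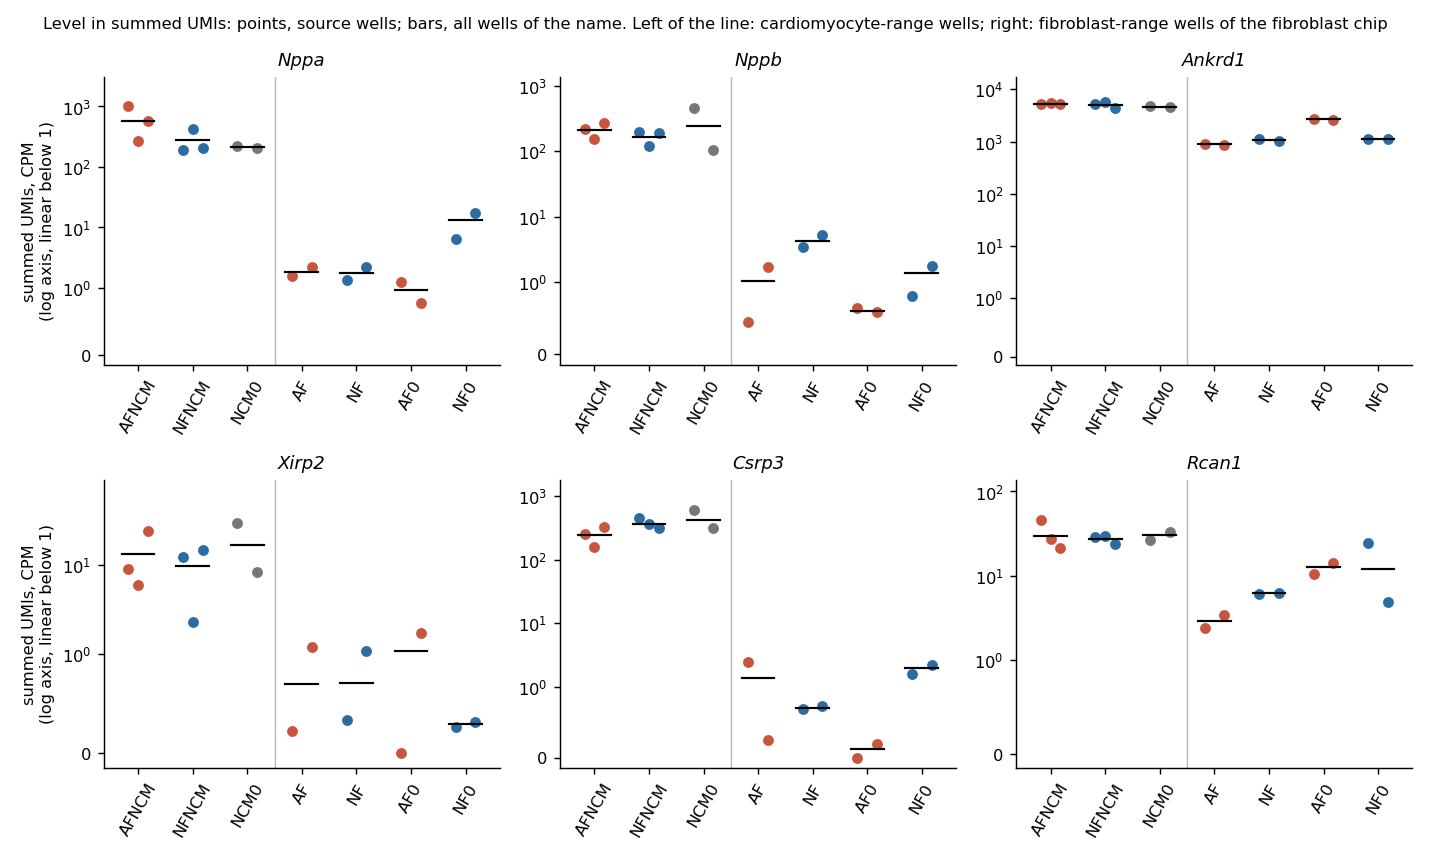
Level of each gene in the summed UMIs of each source well (points, CPM on a log axis that is linear below 1) and of all wells of a name (bars), for cardiomyocyte-range wells (left of the line) and fibroblast-range wells of the fibroblast chip (right). Ankrd1 stays between 868 and 5682 CPM in every source well, whereas Nppa, Nppb and Csrp3 fall from 105 to 1018 CPM on the left to 0 to 17.1 CPM on the right.

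The 10 wells of each name with most Csrp3 were also rich in Nppb and Xirp2. In NFNCM they held Nppb at 2777 CPM, against 120 in the other wells, and Xirp2 at 219 CPM against 6.02. In NCM0 these levels were 1664 against 178 CPM for Nppb and 199 against 8.43 CPM for Xirp2. As given below, a single NCM0 well held a large part of the Xirp2 UMIs of that name. The share of NFNCM wells with Xirp2 is read below as background, so the Xirp2 levels here lean on few wells. The gap was smaller in AFNCM, with 579 against 206 CPM for Nppb and 78.5 against 12.2 CPM for Xirp2. Ankrd1 was higher in the Csrp3-rich wells of NFNCM, at 10160 against 5007 CPM, and lower in those of AFNCM, at 4215 against 5350 CPM. Nppa did not follow one direction, with 1053 against 260 CPM in NFNCM and 70.2 against 217 CPM in NCM0. The atrial marker Myl7 was higher in the Csrp3-rich wells of AFNCM, at 11510 against 2008 CPM. It was also higher in those of NFNCM, at 7552 against 1866 CPM, and lower in those of NCM0, at 121 against 1376 CPM. The Csrp3-rich wells were ranked by their own values, and the levels are a description.

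Xirp2 and Rcan1 were near the limit of detection. Xirp2 was seen in 7.84% of AFNCM wells (5.46 to 10.8%), 4.78% of NFNCM wells (3.06 to 7.09%) and 7.12% of NCM0 wells (4.27 to 11%). In NFNCM this lay below the 10% of fibroblast-range wells (2.79 to 23.7%) and is read as background, and in AFNCM its interval overlapped that of the 3.19% of such wells (0.663 to 9.05%). A single NCM0 well held at least 50% of the Xirp2 UMIs of that name. Rcan1 was seen in 20.9%, 20.6% and 20.9% of AFNCM, NFNCM and NCM0 wells, at 29.5, 27.3 and 30.6 CPM. The intervals for these levels, 26.6 to 32.8, 24.4 to 30.5 and 26.3 to 35.5 CPM, overlapped one another. The share in fibroblast-range wells was 12.8% for AFNCM (6.77 to 21.2%) and 10% for NFNCM (2.79 to 23.7%). On the fibroblast chip Rcan1 stood at 2.90 CPM in AF, 6.21 in NF, 12.8 in AF0 and 12.1 in NF0, and 1 well held at least 50% of the NF0 UMIs.

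The receptors and processing genes of the peptides were sparse in the same wells. Npr3, called higher in imCM-AF in bulk, was seen here in 8 of 421 AFNCM wells (1.9%, 0.824 to 3.71%) against 22 of 481 NFNCM wells (4.57%, 2.89 to 6.84%). Its shares by source well did not overlap, at 1.4 to 2.5% for AFNCM and 4.29 to 4.79% for NFNCM, while its levels did, at 1.72 to 3.08 CPM and 2.32 to 3.99 CPM. In fibroblast-range wells of the same chip the share was 5.32% for AFNCM (1.75 to 12%), and 0 of 40 NFNCM wells had a UMI, which allows a share of up to 7.5%. The AFNCM share lay below that of its fibroblast-range wells, and the intervals overlapped. Wells of the fibroblast chip also held Npr3, so fibroblast-range wells give no empty level for this gene. On the fibroblast chip it reached 92.4 and 94.2 CPM in the AF0 source wells, and 2.58 to 13.4 CPM in those of AF, NF and NF0. Npr1, the receptor of the Nppa and Nppb peptides, was at 2.42 CPM or less in every source well. Corin stood at 1.76 to 15.9 CPM in the cardiomyocyte range and at 1.16 CPM or less on the fibroblast chip. Rcan2, the paralog of Rcan1, stood at 96.5 to 149 CPM over the source wells of the cardiomyocyte range.

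Single wells seldom held all 6 genes. Among cardiomyocyte-range wells, 4 of 421 AFNCM, 4 of 481 NFNCM and 3 of 253 NCM0 wells had a UMI of every member, and 134, 136 and 61 had 2 of them. Among fibroblast-range wells of AF, 159 of 213 held 1 member.

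Across the 902 co-cultured cardiomyocyte-range wells, the genes most like each member were found by Pearson correlation of ln(1 + UMIs per 10000) among 7090 genes. All these wells come from 1 chip and differ in depth, so the values are a description. Nppa was most like Myl7 (r = 0.594), Gpx3, a secreted peroxidase (0.581), and Sln (0.540). In the 864 wells below the atrial level these values were 0.316, 0.255 and 0.214. Nppb had the same 3 genes at the top, at 0.229, 0.223 and 0.208, and at 0.07, 0.05 and 0.04 below the level. Nppa and Nppb correlated with each other at 0.266, and at 0.111 below the level.

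Ankrd1 was most like genes of the contractile apparatus, namely the myosin Myh6 (r = 0.588), the tropomyosin Tpm1 (0.557) and Tnnt2 (0.541). These values were 0.600, 0.568 and 0.538 in AFNCM wells alone and 0.578, 0.548 and 0.548 in NFNCM wells alone. Csrp3 was most like the troponin Tnni3 (0.372) and the mitochondrial genes of the nucleus Chchd10 (0.371) and Atp5g3 (0.324). With Nppa, Ankrd1 had an r of 0.00 and Csrp3 an r of 0.00. The highest values for Rcan1 (0.207, with Cyfip2) and Xirp2 (0.214, with Gm10364) are weak and rest on sparse counts.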

How the data were processed

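Bulk values are whole-number counts per gene that the authors deposited, made with subread (mm10, unique reads) and featureCounts with its RefSeq annotation from TruSeq v2 libraries. Single-cell values are UMI counts per well and gene as deposited by the authors, made on the ICELL8 system with STAR 2.5.2b, with featureCounts and with Subread 1.4.6-p1, as the submitters' processing notes name them. Per the labels cardiomyocytes were separated by centrifugation, and per the methods stained cells were sorted.

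Bulk counts were kept at CPM over 1 in 2 libraries, TMM-scaled and fitted with edgeR 4.0.16 (imCM-AF against imCM-NF, Benjamini-Hochberg adjustment), with DESeq2 1.42.0 and limma 3.58.1 as alternatives in R 4.3.3. Of 27179 identifiers, 1904 had no symbol. On simulated counts for this comparison (13876 genes, log2 fold change 1.5), edgeR recovered 194 of 197 changed genes with 1 false call. Nppa and Ankrd1 changed by less than 1.5, so this recovery does not bear on changes of their size.

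Single-cell sums, shares and intervals were computed with scipy 1.17.1 and pandas 2.3.3, without mitochondrial genes and spike-ins, and no doublet caller was run because wells had been imaged. Wells were thinned to 5000 or 2000 UMIs without replacement. Exon lengths came from GENCODE vM21, and Pde2a was not analysed here in single cells.

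The members and lists were chosen with earlier results of these data known. Named genes were the members, list genes called in bulk, direct partners and paralogs, marker genes, and the 3 genes most correlated with each member. Other list genes given with values (Furin, Tead1, Gata4, Nkx2-5, Mef2c, Mef2d, Tbx5, Myh7) were chosen after their values were seen.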

Additional observations from a re-analysis of the deposited data

How the results depend on the processing

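Across 10 alternatives per gene, Nppa stayed lower and Ankrd1 higher in imCM-AF. With the replicate block Nppa was -0.84 (edgeR adjusted p = 0.125) and Ankrd1 0.80 (edgeR adjusted p = 0.113), both no longer called, with 1430 genes called in all against 1564. Whether samples of equal number share a culture is not known. Their deviations from the group means correlated at -0.131, which 2 libraries per group are too few to interpret. Crossing the pairing called 1668 genes. Leaving out 1 library gave -1.13 to -0.54 for Nppa, 0.63 to 0.99 for Ankrd1, -0.06 to 0.44 for Nppb, -0.35 to 0.45 for Xirp2, -0.35 to 0.19 for Csrp3 and -0.14 to 0.29 for Rcan1. The sign turned for Nppb without imCM-NF replicate 2 (-0.06223), for Csrp3 without imCM-NF replicate 1 (0.19), for Rcan1 without imCM-AF replicate 2 (-0.01) or imCM-NF replicate 2 (-0.14), and for Xirp2 without imCM-AF replicate 2 (-0.07) or imCM-NF replicate 2 (-0.35). Xirp2 also turned without the filter on low counts (-0.005135) and in DESeq2 (-0.0008976). The cause was not tested.

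The count of genes called ranged from 879 to 1929 when 1 library was left out. It was 3789 at the adjusted p alone and 565 with an absolute log2 fold change over 1, since these change the threshold. Of 60 counts over the pathway lists, 13 moved by more than 1.5 times.

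Shares of wells fell with depth. For Nppa they were 47.9% in AFNCM, 23.2% in NFNCM and 27.1% in NCM0 at 5000 UMIs and 32.1%, 14.9% and 23.8% at 2000 UMIs. Over all members thinning moved 32 of 36 shares beyond their interval, and the other settings 4 of 72. With 2 libraries per group the SEs of the 6 members were 0.12 to 0.22 on the log2 scale, and with 1 chip per cell kind no single-cell difference could be tested.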
